A study of Mus musculus with 16 samples.

Results

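The 10 genes described here belong to the visceral endoderm and to hepatic-type secretion. *Afp*, *Ttr*, *Apoa1*, *Apob*, *Trf*, *Amn*, *Cubn*, *Rbp4*, *Gc* and *Serpina3m* were followed across the 16 libraries of this series. They are 10 of the 27807 genes listed. The genes were chosen by name with their values in all 8 groups already known, so those values are given as a description with no test. *Cubn*, *Rbp4*, *Apoa1*, *Ttr* and *Afp* were lower in *Taf4a*-/- embryoid bodies than in WT embryoid bodies at EB5 and EB8, whereas *Gc* and *Serpina3m*, whose ES libraries overlapped between genotypes, were at 9.7 normalised counts or less in WT embryoid bodies and between 49.3 and 416.0 normalised counts in *Taf4a*-/- embryoid bodies. The values of *Afp*, *Ttr* and *Apoa1* rest on few reads, with 3 or fewer in 10, 11 and 6 of the 16 libraries.

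The study compared mouse ES cells with intact *Taf4a* (Taf4+/+, WT) and ES cells homozygous for a *Taf4a* null allele that lacks a pair of internal exons (Taf4-/-, *Taf4a*-/-), with 2 independent lines per genotype. Taf4 is a subunit of TFIID, the general factor that binds core promoters. ES cells were grown with LIF and serum on inactivated mouse embryonic fibroblast feeders, and embryoid bodies were collected before retinoic acid (EB4), after a day with it (EB5), and at the neural precursor stage some days later (EB8). Each of the 8 groups of genotype and stage holds 2 libraries of polyadenylated RNA, and all values are normalised read counts per gene on the authors' own scale.

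The visceral endoderm is the epithelium that wraps the early mouse embryo and later lines the yolk sac. It supplies the embryo before the liver and placenta take over, taking up maternal proteins by endocytosis and secreting plasma proteins such as alpha-fetoprotein, transferrin, transthyretin and apolipoproteins. The fetal liver later makes many of the same proteins under GATA, FOXA and HNF factors, which is why one set of genes marks both tissues. Embryoid bodies commonly form a layer of such endoderm on their surface. *Amn* and *Cubn* differ from the other members in that their products stay at the cell membrane as an uptake receptor.

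The libraries held 22442118 to 40711826 reads assigned to genes, the ES libraries being the deepest (at least 32631020, against at most 27685306 in embryoid bodies). Over the whole gene *Taf4a* was at 1973 to 2400 normalised counts in the 8 *Taf4a*-/- libraries and at 1591 to 1960 in the 8 WT libraries. The counts pool the deleted exons with all others, so they check nothing about the genotypes, which rest on the labels. The replicates of each group differed beyond counting noise in 57.0% to 72.9% of genes. The WT embryoid body libraries of replicate 1 stood apart on chromosome 8, where the median log2 level of genes was 0.43 at EB4, 0.41 at EB5 and 0.39 at EB8 against -0.15 to 0.04 in all other libraries. On chromosome X the level was 0.35 to 0.55 in the *Taf4a*-/- libraries of replicate 2 and 0.47 in WT ES replicate 2, against -0.3 to -0.14 in all others. On chromosome 11 the *Taf4a*-/- libraries of replicate 1 were at 0.17 to 0.27, against -0.14 to 0.0 in all others. None of the 10 members lies on chromosomes 8, 11 or X. *Zfhx3*, *Tubb3* and *Zfp42* are among the genes reported here that lie on chromosome 8. Both EB8 groups carry the label of neural precursor cells, and *Tubb3*, a neuronal tubulin, was at 5245.3 and 5469.6 in WT EB8 and at 555.0 and 271.6 in *Taf4a*-/- EB8.

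The members lay low in these cells. Per kilobase of exon, averaged over all 16 libraries, *Serpina3m* was the highest at 79.7 normalised counts and *Afp* the lowest at 2.96, and 37.7% and 1.3% of the 16124 genes tested lay below them. *Afp*, *Ttr* and *Apoa1* averaged 6.18, 4.77 and 9.90 normalised counts and did not pass the filter of a mean of 10, which the other 7 members did. A normalised count stood for about a read (0.715 to 1.276 per read), and *Afp*, *Ttr* and *Apoa1* had 3 reads or fewer in 10, 11 and 6 of the 16 libraries. In bulk RNA, fewer cells of a type and less RNA per cell cannot be told apart, which holds for every value below. Ratios of group means rest on 2 libraries each. Leaving out 1 library moved 19 of 30 ratios and bounds between genotypes by more than 1.5 times, so the library values are to be read before the ratios.

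**Figure D1:**
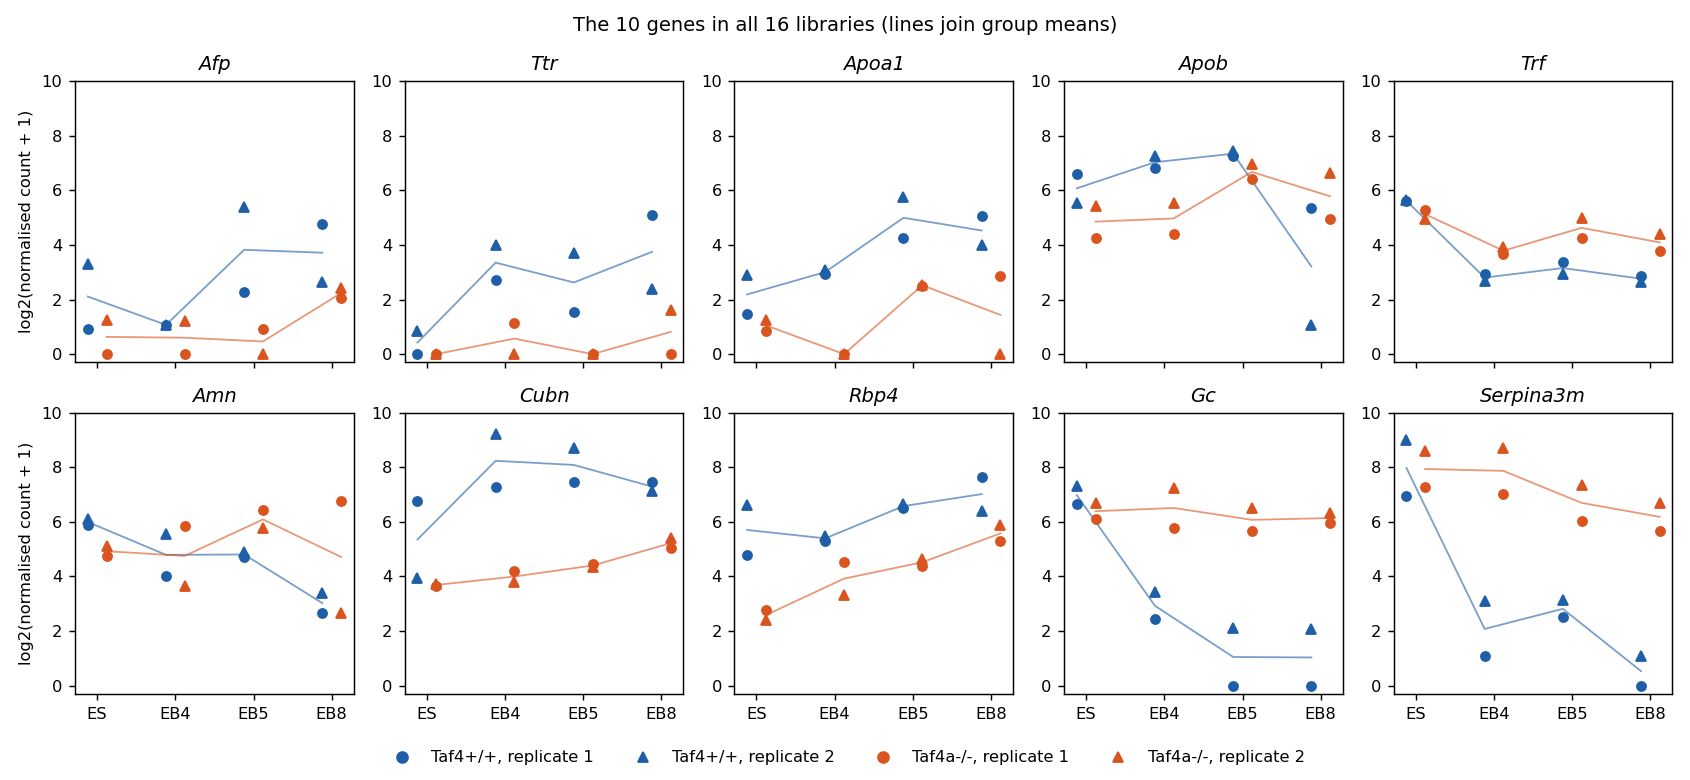
Each panel plots 1 gene, with log2(normalised count + 1) on the vertical axis and the 4 stages on the horizontal axis. Blue marks WT and orange *Taf4a*-/-, circles and triangles are replicates 1 and 2, and lines join group means. *Cubn* and *Rbp4* keep the orange points below the blue at all 4 stages, and *Gc* and *Serpina3m* keep them far above from EB4 on.

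*Cubn* encodes cubilin, the large membrane-bound receptor of the visceral endoderm and proximal tubule that takes up intrinsic factor with vitamin B12, albumin, transferrin and apolipoprotein A-I. Its WT libraries held 107.4 and 14.4 normalised counts in ES cells, 153.4 and 587.6 at EB4, 176.0 and 415.1 at EB5 and 173.3 and 139.8 at EB8. The *Taf4a*-/- libraries held 11.6 and 12.2, then 17.5 and 12.8, then 20.9 and 19.4, and finally 31.7 and 41.5. Every *Taf4a*-/- library thus lay under both WT libraries of its stage, and the highest *Taf4a*-/- library held 41.5. The ratio of means was 24.5 at EB4 (371 ± 307 in WT against 15.1 ± 3.37, SD, n = 2 each), and 14.7 at EB5, and without WT replicate 2 these were 10.1 and 8.74. On the log2 scale with a pseudocount of 1, the *Taf4a*-/- minus WT difference was -4.24 at EB4, -3.68 at EB5 and -2.07 at EB8, each with a standard error of 0.81 from the fit over all 16 libraries. In ES cells the difference of -1.66 became -0.25 without WT replicate 1.

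In WT, *Cubn* was 6.09-fold higher in means at EB4 than in ES cells (2.52-fold without EB4 replicate 2 and 25.8-fold without ES replicate 1), and its EB8 libraries lay under both EB5 libraries. In *Taf4a*-/- cells the libraries of each stage lay above those of the stage before, and the EB8 mean was 3.08 times the ES mean. The steps to EB4 and EB5 were 1.27-fold and 1.33-fold in means. They rested on 31, 25 and 42 reads in ES cells, EB4 and EB5, and so were not resolved from counting error. The gene spans 68 merged exons on mouse chromosome 2 (NCBIM37, chr2:13197965-13413551, minus strand) and shares 161 exonic bases with an antisense long noncoding gene, *Gm13270*. The libraries do not mark strand, so reads there cannot be assigned to either.

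*Amn* encodes amnionless, the transmembrane partner that cubilin needs to reach the surface. WT libraries held 58.3 and 67.8 normalised counts in ES cells, 15.3 and 46.1 at EB4, 25.4 and 28.6 at EB5 and 5.3 and 9.5 at EB8. *Taf4a*-/- libraries held 25.7 and 33.6, then 57.2 and 11.5, then 84.4 and 53.3, and 108.7 and 5.3 at EB8. So the partner of cubilin did not follow it. *Amn* was lower in *Taf4a*-/- ES cells by 2.12-fold, overlapped at EB4, was 2.55-fold higher at EB5 (68.9 ± 22.0 against 27.0 ± 2.22, SD, n = 2), and overlapped again at EB8. The EB8 log2 difference of 1.70 rested on *Taf4a*-/- replicate 1 and was -0.36 without it. Over the 16 libraries the log2 levels of *Amn* and *Cubn* had a Pearson r of -0.25.

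*Rbp4* encodes the plasma carrier of retinol. In WT it was at 26.4 and 98.1 normalised counts in ES cells, 38.4 and 44.0 at EB4, 90.3 and 98.8 at EB5 and 199.5 and 82.6 at EB8. In *Taf4a*-/- cells it was at 5.8 and 4.3, then 22.2 and 8.9, then 19.9 and 24.2, and 38.0 and 57.5. In both genotypes the EB8 libraries lay above the EB4 libraries, and the *Taf4a*-/- libraries stayed under the WT libraries at each stage. The ratio of means was 12.3 in ES cells, 2.64 at EB4, 4.28 at EB5 and 2.95 at EB8. The matching log2 differences were -3.12, -1.47, -2.06 and -1.44, with a standard error of 0.64. The EB8 mean was 3.43 times the EB4 mean in WT and 3.07 times in *Taf4a*-/- cells.

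*Ttr* encodes transthyretin, the thyroxine carrier that also holds retinol-binding protein in the circulation. WT libraries held 0.0 and 0.8 normalised counts in ES cells, 5.5 and 15.0 at EB4, 1.9 and 12.1 at EB5 and 33.6 and 4.2 at EB8. *Taf4a*-/- libraries held 0.0 and 0.0, then 1.2 and 0.0, then 0.0 and 0.0, and 0.0 and 2.1. In *Taf4a*-/- cells the gene was therefore at the detection floor of 3 reads per group throughout. At EB5, with 13 reads in WT and 0 in *Taf4a*-/- libraries, WT was at least 4.85-fold higher, counting 3 reads over the group as the floor, and at least 1.31-fold without WT replicate 2. The EB4 ratio was 17.5 (exact 95% counting interval 2.79 to 729) and the EB8 ratio 17.8 (4.57 to 152). These intervals and floors cover counting error only.

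*Afp* and *Gc* belong to the albumin gene family, which sits together on mouse chromosome 5, and encode alpha-fetoprotein, the main serum protein of the fetus, and vitamin D binding protein. Their upstream sequences are shown since these relatives differed between genotypes in opposite directions. They are from RefSeq on GRCm38.p6, 250 bases ending just before the annotated start and written 5′ to 3′ on the gene's strand, and *Afp* lies on the plus strand (chr5:90490464-90490713) and *Gc* on the minus strand (chr5:89457899-89458148). Capitals mark the HNF1 core GTTAAT, and the TATA box letters TATAAA in *Afp*.
Afp: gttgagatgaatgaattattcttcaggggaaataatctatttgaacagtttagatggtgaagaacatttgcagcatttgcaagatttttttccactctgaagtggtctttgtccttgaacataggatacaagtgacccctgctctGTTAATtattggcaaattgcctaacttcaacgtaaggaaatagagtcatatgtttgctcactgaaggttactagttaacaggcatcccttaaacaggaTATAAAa
Gc: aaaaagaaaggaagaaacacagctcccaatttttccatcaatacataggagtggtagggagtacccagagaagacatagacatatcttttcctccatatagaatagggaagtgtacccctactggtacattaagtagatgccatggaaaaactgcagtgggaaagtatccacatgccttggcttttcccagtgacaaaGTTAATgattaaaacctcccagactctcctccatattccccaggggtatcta
Both windows hold the HNF1 core, with its first letter at -105 in *Afp* and -52 in *Gc* counted from the start, and 7.10% of the 32851 RefSeq windows of 300 bases hold it on either strand. The TATA box letters in *Afp* begin at -7 and 8.32% of windows hold them on the gene's strand. Whether they serve as a TATA box for this start was not tested. Neither window holds the FOXA core TGTTTAC, the GATA core AGATAA or the nuclear receptor core AGGTCA on either strand, which 3.65%, 11.2% and 16.3% of windows hold. A match is only a match of letters.

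*Afp* itself was barely detected. WT libraries held 0.9 and 8.8 normalised counts in ES cells, 1.1 and 1.1 at EB4, 3.8 and 40.6 at EB5 and 26.3 and 5.3 at EB8. Corresponding *Taf4a*-/- values were 0.0 and 1.4, then 0.0 and 1.3, then 0.9 and 0.0, and 3.2 and 4.3. WT replicates were far apart wherever the gene was seen, and the genotypes did not overlap at EB5 and EB8. The WT to *Taf4a*-/- ratio was 46.8 at EB5, where the *Taf4a*-/- libraries held 1 read (41 reads in WT, counting interval 7.95 to 1894), and 4.25 at EB8 (15.8 ± 14.8 against 3.71 ± 0.775, SD, n = 2). The EB8 ratio was 1.43 without WT replicate 1, and WT EB8 replicate 2 held 5 reads against 3 and 4 in the *Taf4a*-/- EB8 libraries.

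*Gc* went the other way. WT libraries held 100.1 and 156.3 normalised counts in ES cells, 4.4 and 9.7 at EB4, 0.0 and 3.3 at EB5 and 0.0 and 3.2 at EB8. In the mutant *Taf4a*-/- cells these were 67.2 and 102.2, then 53.7 and 150.6, then 49.3 and 89.2, and 61.2 and 78.8. In WT the mean was 18.3-fold lower at EB4 than in ES cells, and in *Taf4a*-/- cells the groups of neighbouring stages overlapped throughout. Means stood in a *Taf4a*-/- to WT ratio of 14.6 at EB4 (102 ± 68.5 against 7.02 ± 3.72, SD, n = 2), 42.0 at EB5 (144 reads against 3, counting interval 14.1 to 206) and 44.1 at EB8 (132 against 3, 14.8 to 216). In ES cells the groups overlapped, with a log2 difference of -0.59 and a standard error of 0.83.

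*Serpina3m*, a rodent member of the alpha-1-antichymotrypsin family of secreted protease inhibitors, was also the higher in *Taf4a*-/- embryoid bodies. WT libraries held 123.8 and 504.7 normalised counts in ES cells, 1.1 and 7.5 at EB4, 4.7 and 7.7 at EB5 and 0.0 and 1.1 at EB8. Values in *Taf4a*-/- were 153.6 and 386.7, then 129.7 and 416.0, then 64.5 and 162.9, and 49.6 and 103.3. The ES libraries of the genotypes overlapped, and the highest WT embryoid body library held 7.7. Means stood in a *Taf4a*-/- to WT ratio of 63.4 at EB4 and 18.3 at EB5, and at EB8 it was 144 (144 reads against 1, counting interval 25.5 to 5744). Unlike *Gc*, *Serpina3m* did decline in *Taf4a*-/- cells, its EB8 libraries lying under both ES libraries with a mean 3.53-fold lower. The gene lies in a cluster of near-identical paralogues on chromosome 12, between which reads can be split or dropped. Of 10 paralogues listed, 7 were in the table and none reached a mean of 10, the highest values being 53.3 for *Serpina3g* in *Taf4a*-/- EB8 replicate 2 and 29.9 and 29.3 for *Serpina3i* in *Taf4a*-/- ES cells.

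Markers of undifferentiated cells were, in their sum, also higher in *Taf4a*-/- embryoid bodies. The summed normalised counts of *Pou5f1*, *Nanog*, *Zfp42* and *Esrrb* were 45296 to 65609 in WT ES cells, 15514 to 31836 at EB4, 5910 to 8582 at EB5 and 752 to 1046 at EB8. They were 69795 to 73483, 41705 to 54458, 22939 to 35689 and 17701 to 19205 in the matching *Taf4a*-/- groups. All 4 markers were higher in *Taf4a*-/- EB8 (limma, log2 2.93 to 5.41), beside 10.4% of all genes tested. At EB4 limma called 1 higher (*Esrrb*) and at EB5 2 (*Nanog* and *Esrrb*), beside 2.75% and 2.17% of all genes tested. The genotypes overlapped for *Pou5f1* at EB4 and for *Zfp42* at EB4 and EB5. The sums of WT EB4 and *Taf4a*-/- EB8 overlapped, but single markers differed in both directions. *Pou5f1* was at 19284.7 and 9597.1 in WT EB4 and at 3217.9 and 3690.0 in *Taf4a*-/- EB8. *Nanog* was at 6388.4 and 3464.6 against 7989.0 and 8407.9, *Esrrb* at 3449.0 and 2053.4 against 5510.6 and 5325.1, and *Zfp42* overlapped. In the same groups *Gc* was at 4.4 and 9.7 against 61.2 and 78.8, and *Serpina3m* at 1.1 and 7.5 against 49.6 and 103.3. The part of these markers in the values of both genes was not tested.

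**Figure D2:**
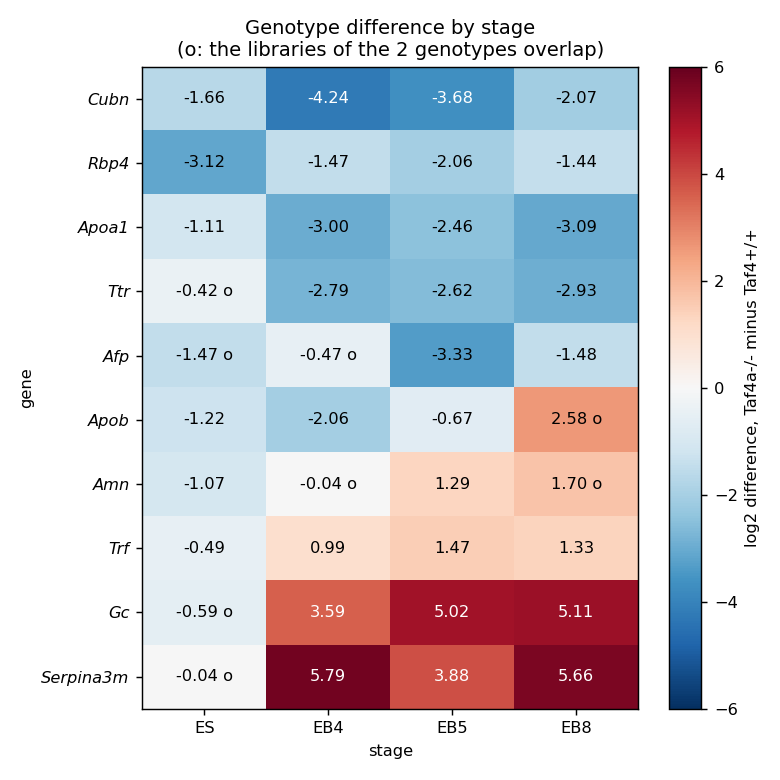
Rows are the 10 genes and columns the 4 stages, and colour and number give the log2 difference of mean log2(normalised count + 1), *Taf4a*-/- minus WT. An o marks groups whose libraries overlap. *Cubn* runs from -1.66 to -4.24 and *Serpina3m* from -0.04 in ES cells to 5.79 at EB4.

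*Apoa1* encodes the main protein of high-density lipoprotein. WT libraries held 1.8 and 6.4 normalised counts in ES cells, 6.6 and 7.5 at EB4, 17.9 and 52.7 at EB5 and 32.6 and 14.8 at EB8. Against this, *Taf4a*-/- libraries held 0.8 and 1.4, then 0.0 and 0.0, then 4.7 and 4.8, and 6.3 and 0.0. The genotypes did not overlap at any stage. With 13 reads against 0 at EB4, WT was at least 3.84-fold higher, and the ratio of means was 7.36 at EB5 and 7.48 at EB8. In ES cells the ratio was 3.63 with a counting interval of 0.934 to 20.5, which includes 1, so a difference there was not detectable at this depth.

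*Apob* encodes the structural protein of low-density and very low-density lipoprotein and, unlike *Apoa1*, was well counted in ES cells. WT libraries held 96.5 and 45.4 normalised counts in ES cells, 110.7 and 151.2 at EB4, 150.6 and 172.4 at EB5 and 39.9 and 1.1 at EB8. For *Taf4a*-/- cells the libraries held 18.3 and 42.2, then 19.9 and 45.9, then 83.4 and 122.2, and 29.5 and 98.0. Up to EB5 the *Taf4a*-/- libraries were under the WT libraries and the genotypes overlapped at EB8. The ratio of WT to *Taf4a*-/- means was 2.35 in ES cells, 3.98 at EB4 and 1.57 at EB5, with log2 differences of -1.22, -2.06 and -0.67 and a standard error of 1.07. At EB8 the log2 difference of 2.58 rested on WT replicate 2, where 1 read was counted, and was 0.43 without it. In WT the EB8 mean was 7.88-fold under the EB5 mean, a ratio that was 4.05 without EB8 replicate 2 and 153 without EB8 replicate 1.

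*Trf* encodes transferrin, the plasma iron carrier. WT libraries held 47.3 and 48.6 normalised counts in ES cells, 6.6 and 5.4 at EB4, 9.4 and 6.6 at EB5 and 6.3 and 5.3 at EB8. Their *Taf4a*-/- counterparts held 38.2 and 30.0, then 11.7 and 14.0, then 18.0 and 31.0, and 12.7 and 20.2. The gene was thus lower in *Taf4a*-/- ES cells and higher in *Taf4a*-/- embryoid bodies, with no overlap at any stage. The WT ES mean was 1.41 times the *Taf4a*-/- mean, and the *Taf4a*-/- mean was 2.15, 3.07 and 2.84 times the WT mean at EB4, EB5 and EB8. The log2 differences were -0.49, 0.99, 1.47 and 1.33 with a standard error of 0.49, and the ES difference was -0.12 after quantile normalisation. Of the 3310 exonic bases of *Trf*, 2108 (63.7%) also belong to another annotated gene on the same strand, *Gm20425*, which was at 0.0 in 15 libraries and 0.7 in 1. How ambiguous reads were counted is not given in the sources used here, so the level of *Trf* may be understated.

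Per kilobase of exon, the leading member changed with stage in WT and was the same at all 4 stages in *Taf4a*-/- cells. In WT ES cells the mean levels per kilobase were led by *Serpina3m* (189), *Gc* (76.9), *Rbp4* (48.0) and *Amn* (37.4), neighbours whose libraries overlapped. *Rbp4* led at EB4 (31.7), where it overlapped *Cubn* (31.4), and stood alone at the top at EB5 (72.9, next *Apoa1* at 28.6) and EB8 (109, next *Apoa1* at 19.2). In *Taf4a*-/- cells *Serpina3m* led at all stages (163, 164, 68.5 and 46.1) and *Gc* came next (50.9, 61.3, 41.6 and 42.0), and the pair overlapped except in ES cells. *Ttr* took the last place in *Taf4a*-/- ES cells, EB5 and EB8 and *Apoa1* at EB4. The library medians of the genes tested were 126 to 158 per kilobase, and *Serpina3m* in WT ES cells and in *Taf4a*-/- ES cells and EB4 was the one member whose group mean exceeded them.

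Counted over the members, none had both *Taf4a*-/- libraries above both WT libraries in ES cells and 6 had both below (*Apoa1*, *Apob*, *Trf*, *Amn*, *Cubn* and *Rbp4*). Of the 18226 genes with a mean of at least 4, 18.3% and 20.8% were so arranged. At EB4, 3 members lay above (*Trf*, *Gc* and *Serpina3m*) and 5 below (*Ttr*, *Apoa1*, *Apob*, *Cubn* and *Rbp4*), beside 24.5% and 25.5% of all these genes. At EB5, 4 lay above (these 3 and *Amn*) and 6 below, beside 27.0% and 26.3%, and at EB8 3 lay above and 5 below, beside 30.3% and 31.6%. The median log2 difference over the 10 members was -1.09 in ES cells, -0.97 at EB4, -1.36 at EB5 and -0.05 at EB8, while that of all genes tested lay between -0.03 and 0.00. The medians of the members include *Afp*, *Ttr* and *Apoa1*, which did not pass the filter of the genes tested. The same comparison chose the members, so nothing is read from these counts or medians.

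**Figure D3:**
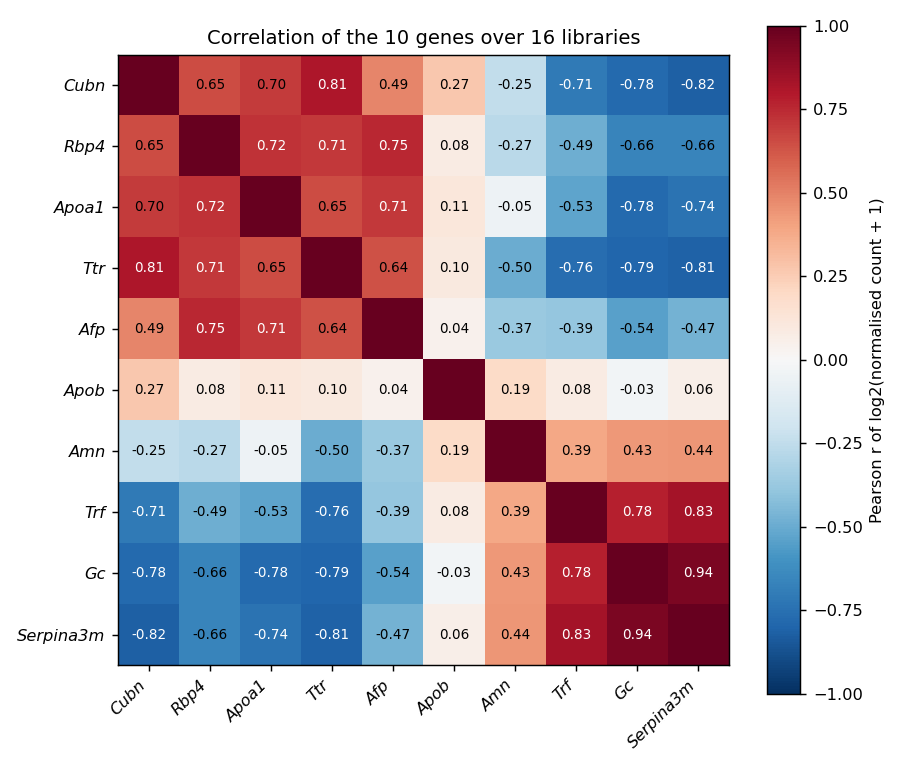
Each cell gives Pearson r between the log2(normalised count + 1) of a pair of members over the 16 libraries. *Gc*, *Serpina3m* and *Trf* form a block of positive values that is negative against *Cubn*, *Ttr* and *Apoa1*, and *Apob* lies between -0.03 and 0.27 with all others.

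The members were split into those lower and those higher in *Taf4a*-/- embryoid bodies from these same 16 libraries. Opposed profiles between the sets follow largely from that split, so the values are a description and nothing is read from them. The libraries also share lines and stages. *Gc* and *Serpina3m* had a Pearson r of 0.94, and *Trf* had 0.78 with *Gc* and 0.83 with *Serpina3m*. *Cubn* had 0.81 with *Ttr*, 0.70 with *Apoa1* and 0.65 with *Rbp4*, and *Afp* had 0.75 with *Rbp4*. Between the sets *Cubn* had -0.82 with *Serpina3m* and -0.78 with *Gc*. *Apob* had no value beyond 0.27 in size with any other member. Values for *Afp*, *Ttr* and *Apoa1* rest on few reads. Of members on the same chromosome, *Afp* and *Gc* on chromosome 5 had -0.54, *Apoa1* and *Trf* on chromosome 9 had -0.53, and *Apob* and *Serpina3m* on chromosome 12 had 0.06.

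For *Cubn* and *Rbp4*, the members lower in *Taf4a*-/- cells at all 4 stages with counts above the floor in every library, the upstream RefSeq windows are shown for comparison. The *Cubn* window is cut 48 bases short of the RefSeq start because an annotated transcript begins there (chr2:13491925-13492126, minus strand), and *Rbp4* is given at the downstream of its 2 RefSeq starts (chr19:38124812-38125061, minus strand), both on GRCm38.p6. Capitals mark the TATA box letters TATAAA.
Cubn: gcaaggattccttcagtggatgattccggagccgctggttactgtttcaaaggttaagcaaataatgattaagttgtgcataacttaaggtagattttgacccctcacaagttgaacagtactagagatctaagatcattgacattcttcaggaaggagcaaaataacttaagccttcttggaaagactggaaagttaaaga
Rbp4: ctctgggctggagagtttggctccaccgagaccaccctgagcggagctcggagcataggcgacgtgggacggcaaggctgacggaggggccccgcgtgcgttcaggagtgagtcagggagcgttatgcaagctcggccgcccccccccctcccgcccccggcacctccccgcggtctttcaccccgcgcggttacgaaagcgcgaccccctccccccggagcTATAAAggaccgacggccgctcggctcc
*Rbp4* holds the TATA box letters at -28, as 8.32% of all windows hold them on the gene's strand, and *Cubn* holds none of the 5 motifs. Whether the letters in *Rbp4* serve as a TATA box was not tested. The other start of *Rbp4*, further upstream, holds the FOXA core on the opposite strand at -241. RefSeq windows were found for 7 of the 10 members, and *Trf*, *Serpina3m* and *Ttr* are given by name only.

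Among other genes with a mean of at least 50, the closest to the mean standardised profile of the 7 members that passed the filter was *Rnf17* (Pearson r 0.87 over 16 libraries), followed by *Chst12* and *4930500J02Rik* (both 0.836). These 7 include opposed profiles, such as *Cubn* and *Serpina3m* (-0.82), so their mean need not follow any single member. Single members had closer neighbours. *Rbp4* had *Lipa* (0.971) and *Nek6* (0.931), *Cubn* had *Capn2* (0.927) and *Efna5* (0.914), and *Serpina3m* had *Smtnl1* (0.975) and *Gm7221* (0.974). *Gc* had *Gm949* (0.959) and *1110021L09Rik* (0.958), *Trf* had *9030625A04Rik* (0.969) and *Avpi1* (0.929), *Amn* had *Gm10327* (0.871) and *Rhbdf2* (0.846), and *Apob* had *Lrrn4* (0.852) and *Ms4a4d* (0.842).

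The other genes of hepatic-type secretion were tested with limma on log2(normalised count + 1), with Benjamini-Hochberg adjustment over all 16124 genes. Of 32 listed, 30 were in the table and 10 passed the filter, and albumin (*Alb*, 0.0 to 4.2 normalised counts) was among those too low to test. By limma none of the 10 was called between genotypes in ES cells, EB4 or EB5, where 0, 4 and 4 had an unadjusted p under 0.05. On the recovered reads edgeR called none at these stages and DESeq2 called 3 at EB5. In ES cells limma called no gene of all 16124, and 1846 had an unadjusted p under 0.05. At EB8, 4 were higher in *Taf4a*-/- cells and 1 lower, beside 10.4% and 12.5% of all genes tested, and the list's median log2 difference was 1.57 against -0.03 for all genes. *Apoc1*, an apolipoprotein of remnant particles, was higher by 3.10 ± 0.56 (log2, SE, adjusted p = 0.00233), with 325.0 and 302.5 normalised counts against 48.3 and 26.5. *Vtn*, which encodes vitronectin, was at 325.5 and 38.1 in WT EB8 and at 0.0 in both *Taf4a*-/- EB8 libraries, at least 114-fold higher in WT (adjusted p = 0.000499). This bound rests on WT replicate 1 and was 24.0 without it. Both calls held without any 1 library.

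*Afm*, another gene of the albumin family, was at 58.0 and 93.7 normalised counts in *Taf4a*-/- EB8 and 0.0 and 9.5 in WT EB8 (limma, log2 4.53 ± 1.33 SE, adjusted p = 0.0279). *Fetub*, a fetuin, was at 51.7 and 70.3 against 1.1 and 3.2 (4.39 ± 1.04, adjusted p = 0.01), and *Apoe* at 8331.8 and 6757.9 against 3864.4 and 3102.2 (1.12 ± 0.37, adjusted p = 0.0457). Without WT replicate 1 or *Taf4a*-/- replicate 2, the list's EB8 count was 2, and without *Taf4a*-/- replicate 1 it was 3. The call of *Afm* held only without WT replicate 2 (adjusted p up to 0.221), that of *Fetub* was lost without WT replicate 1 or *Taf4a*-/- replicate 2 (up to 0.0675), and that of *Apoe* without each of the 4 libraries (up to 0.201). The call of *Apoe* was also lost with a replicate block (adjusted p = 0.0501) and by edgeR (0.0538), and that of *Afm* by edgeR (0.0553).

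From EB4 to EB8 in WT, 2 of the 10 rose and 3 fell, beside 15.0% and 12.2% of all genes. *Vtn* rose from 0.0 in both EB4 libraries, at least 112-fold (23.4 without EB8 replicate 1), and *Cp*, which encodes the copper oxidase ceruloplasmin, rose from 3.3 and 5.4 to 114.5 and 129.2 (log2 4.55 ± 1.37 SE, limma adjusted p = 0.027). *Apoe*, *Apoc1* and *Fetub* had log2 changes of -2.09, -1.94 and -3.27. In *Taf4a*-/- cells none rose and *Apoe* alone fell (log2 -1.49), beside 9.86% and 8.67% of all genes. Without WT EB4 replicate 1, WT EB8 replicate 2 or WT EB8 replicate 1 the WT count of 5 was 2, 2 and 3. The call of *Cp* was lost without any of the 4 libraries (adjusted p up to 0.127). The *Taf4a*-/- call of *Apoe* held only without EB8 replicate 1 (up to 0.0948).

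The transcription factors that drive endoderm and hepatic genes were counted well, 14 of 15 passing the filter, and the exception was *Hnf4a* (0.0 to 33.6 normalised counts), the nuclear receptor that governs many apolipoprotein genes. In *Taf4a*-/- EB8, 5 were lower (*Foxa1*, *Foxa2*, *Onecut1*, *Prox1* and *Sox17*) and 1 higher (*Nr5a2*), beside 12.5% and 10.4% of all genes tested. *Foxa2*, a forkhead factor of endoderm and of the neural floor plate, was at 575.5 and 339.9 normalised counts in WT EB8 and at 40.1 and 38.3 in *Taf4a*-/- EB8 (limma, log2 -3.46 ± 0.72 SE, adjusted p = 0.00513). *Onecut1*, also called HNF6, was at 236.3 and 298.6 against 33.8 and 8.5 (-3.87 ± 0.70, adjusted p = 0.00213). *Foxa1* and *Prox1*, a hepatoblast homeobox factor also made in neural precursors, were lower, with log2 differences of -2.63 ± 0.38 and -3.25 ± 0.56 and adjusted p values of 0.000584 and 0.00174. These 4 calls held without any 1 library, while that of *Sox17* (-2.68 ± 0.88, adjusted p = 0.046) was lost without each of the 4 EB8 libraries in turn, with adjusted p up to 0.183, and was also lost with a replicate block (adjusted p = 0.0503).

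*Nr5a2*, also called LRH-1, is expressed both in ES cells and in endoderm, and binds the *Pou5f1* promoter region as well as bile acid genes. It was higher in *Taf4a*-/- cells by 1.85 ± 0.25 at EB4 (log2, SE, limma adjusted p = 0.00503), 2.01 ± 0.25 at EB5 and 4.01 ± 0.25 at EB8 (adjusted p = 7.53e-06), and by EB8 it stood at 831.4 and 650.9 normalised counts against 43.1 and 46.6. The EB4 and EB5 calls were lost without *Taf4a*-/- replicate 2 of the stage, with adjusted p of 0.0826 and 0.0725. At EB5 *Foxa2* was at 15.2 and 6.8 against 292.6 and 352.5 (-4.84 ± 0.72, adjusted p = 0.009), and without WT replicate 2 or *Taf4a*-/- replicate 2 its adjusted p was up to 0.135. Without *Taf4a*-/- EB5 replicate 2 the EB5 count of 2 regulators was 0, without WT EB5 replicate 2 it was 1 and without *Taf4a*-/- EB5 replicate 1 it was 4. Of all genes tested, 2.75% were higher and 3.37% lower at EB4, and 2.17% each way at EB5.

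From EB4 to EB8, 8 of 14 regulators rose in WT with 2 falling, and 7 rose in *Taf4a*-/- cells with none falling. Of all genes tested, 15.0% rose and 12.2% fell in WT, and 9.86% rose and 8.67% fell in *Taf4a*-/- cells. The count of 7 was 3 without *Taf4a*-/- EB4 replicate 2 or EB8 replicate 1 and 4 without EB8 replicate 2. *Gata6* rose in both, by 3.56 in WT and 2.56 in *Taf4a*-/- cells on the log2 scale (limma, SE 0.48 each), and *Foxa1* by 5.86 and 3.91 (SE 0.38 each). A test of the difference between genotypes in this change called *Nr5a2* (2.16 ± 0.36, adjusted p = 0.0105) and *Onecut1* (-4.52 ± 0.98, adjusted p = 0.031), beside 1.04% of genes higher and 1.71% lower. The *Onecut1* call held only without *Taf4a*-/- EB8 replicate 1, with adjusted p up to 0.118 without the others. Of 3 zinc finger and homeobox repressors of *Afp*, 2 were tested. *Zfhx3* was lower in *Taf4a*-/- cells at EB4 (limma, -1.03 ± 0.25, adjusted p = 0.0333, held only without WT replicate 2, up to 0.251) and EB8 (-1.20 ± 0.25, adjusted p = 0.00465, held without any 1 library). The part of the higher chromosome 8 level of WT replicate 1 in these values was not tested. *Zbtb20* passed no test between genotypes, and *Zhx2* was at 0.0 to 3.3 normalised counts.

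**Figure D4:**
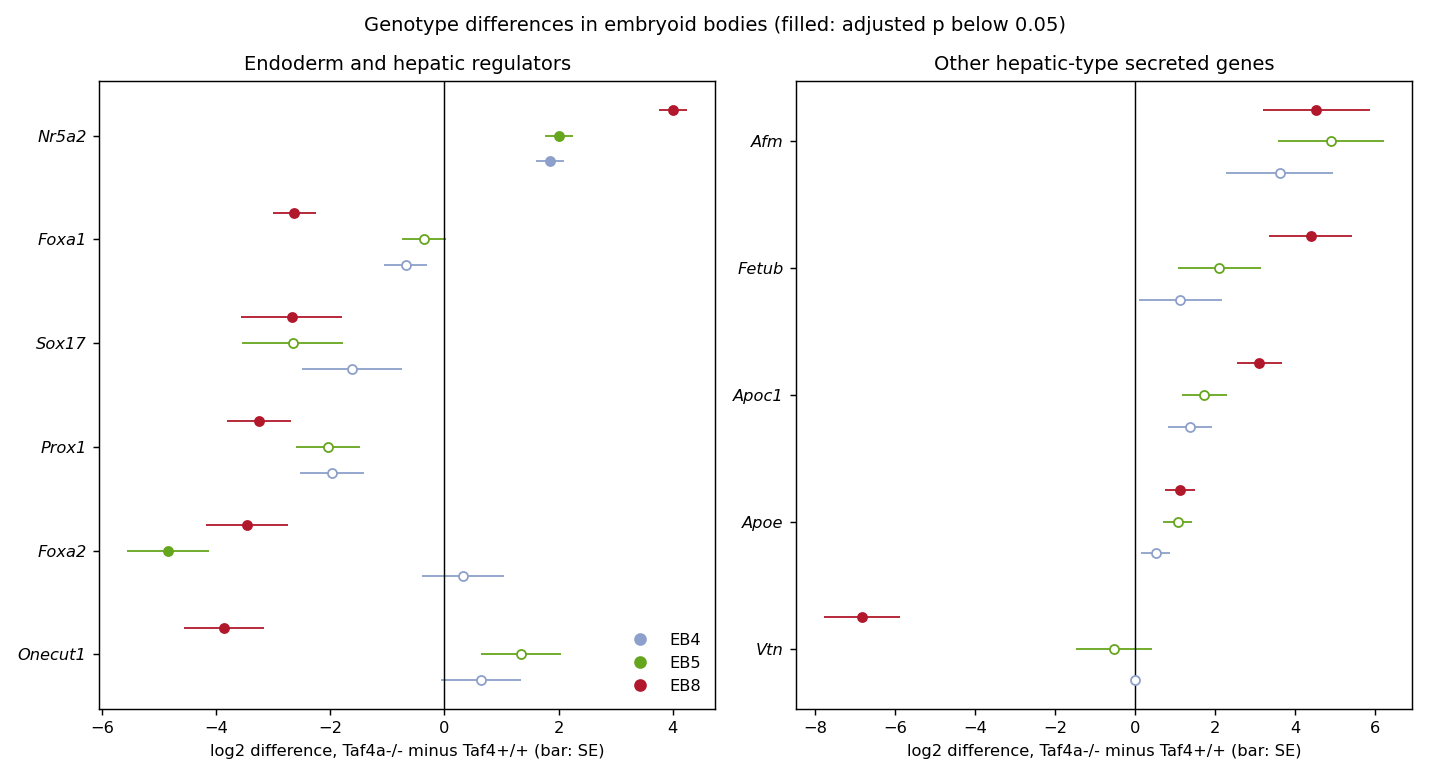
The horizontal axes give the limma log2 difference, *Taf4a*-/- minus WT, with bars of 1 standard error, for the 6 regulators and 5 other secreted genes called at EB4, EB5 or EB8, at these 3 stages. Filled points have an adjusted p below 0.05. *Foxa2*, *Onecut1* and *Vtn* lie farthest to the left at EB8 and *Nr5a2* is the regulator to the right of 0 at all 3.

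The uptake machinery that works with cubilin was tested for 6 genes. *Lrp2*, which encodes megalin, and *Dab2*, its endocytic adaptor, were lower in *Taf4a*-/- EB4, with *Lrp2* at 5553.9 and 4516.3 normalised counts against 10490.6 and 30207.7 (limma, log2 -1.83 ± 0.47 SE, adjusted p = 0.0439) and *Dab2* at 225.5 and 93.2 against 705.8 and 735.6 (-2.30 ± 0.50, adjusted p = 0.0222). The *Lrp2* call held only without WT replicate 1 (adjusted p up to 0.281 without another) and the *Dab2* call only without *Taf4a*-/- replicate 1 (up to 0.24). Of all genes tested, 3.37% were lower at EB4. At EB8, 3 of the 6 genes were higher in *Taf4a*-/- cells, *Folr1* and *Lrpap1* among them, and none lower, beside 10.4% and 12.5% of all genes tested. The folate receptor *Folr1* was at 789.2 and 1437.0 against 115.5 and 78.3 (3.47 ± 0.52, adjusted p = 0.000716), and its call held without any 1 library. *Lrpap1*, the megalin chaperone, was higher by 0.57 ± 0.17 (adjusted p = 0.0337), and lost its call without each of the 4 libraries (up to 0.194).

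Retinol and retinoic acid genes, the partners of *Rbp4*, were lower in *Taf4a*-/- EB8 for 5 of the 8 tested, among them *Crabp1*, *Rarb*, *Rdh10* and *Dhrs3*, and higher for none. Of all genes tested, 12.5% were lower and 10.4% higher. *Crabp1*, a retinoic acid binding protein, was at 351.3 and 289.7 normalised counts against 5085.7 and 5116.0 (limma, log2 -3.99 ± 0.51 SE, adjusted p = 0.000285). From EB4 to EB8 all 8 rose in WT and 6 rose in *Taf4a*-/- cells, among them *Stra6*, the receptor for the *Rbp4* product, by 5.28 and 5.14 on the log2 scale. Of all genes tested, 15.0% rose in WT and 9.86% in *Taf4a*-/- cells. Retinoic acid was added between these stages in both genotypes. The rise was smaller in *Taf4a*-/- cells for *Crabp1* (limma, -5.40 ± 0.72, adjusted p = 0.00468). The EB8 calls of *Rarb* and *Dhrs3* held only without WT replicate 1 (adjusted p up to 0.0844 and 0.298) and that of *Rdh10* only without *Taf4a*-/- replicate 2 (up to 0.177). At EB4 *Dhrs3*, a retinal reductase, had a log2 difference of -2.30 (limma adjusted p = 0.00742, and 0.0927 without *Taf4a*-/- replicate 2).

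Among genes of iron handling, the partners of *Trf*, 9 of 10 were tested. The ferrireductase *Steap3* was lower in *Taf4a*-/- EB4 (limma, log2 -1.0 ± 0.25 SE, adjusted p = 0.0374, lost without any of the 4 libraries) and higher at EB8, at 1239.7 and 805.3 normalised counts against 160.7 and 147.2 (2.69 ± 0.25, adjusted p = 4.3e-05). The change from EB4 to EB8 differed between genotypes by 3.69 ± 0.35 (adjusted p = 0.000895). *Mfi2*, which encodes melanotransferrin, a membrane relative of transferrin, was higher at EB5 (2.97 ± 0.76, adjusted p = 0.0474) and EB8 (2.67 ± 0.76, adjusted p = 0.024), and the exporter *Slc40a1* at EB5 (1.74 ± 0.43, adjusted p = 0.0442). The calls of *Mfi2* held only without *Taf4a*-/- replicate 1 of the stage (adjusted p up to 0.463 and 0.146), and that of *Slc40a1* was lost without each library (up to 0.202). The transferrin receptor *Tfrc* was at 7892.4 to 24999.4 in all libraries and passed no test between genotypes. Of 8 lipoprotein genes, the partners of *Apob* and *Apoa1*, 2 were lower and 1 higher in *Taf4a*-/- EB8, beside 12.5% and 10.4% of all genes tested. The higher was *Dgat2*, an enzyme of triglyceride synthesis, by 1.01 ± 0.30 (limma adjusted p = 0.0293, lost without each of the 4 libraries, up to 0.13). *Mttp*, which loads lipid onto the *Apob* product, passed no test between genotypes.

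Markers of the cell types that could carry these transcripts were read in the same libraries. No hepatocyte enzyme of the 6 listed, *Cps1*, *Tat* and *G6pc* among them, passed the filter, and their summed normalised counts were 1.06 to 33.0 in all groups. Enzymes of mature liver were thus low in every library. Of 8 visceral endoderm markers other than the members, 7 were in the table and their sum, mostly *Lrp2*, was 11245 to 31015 in WT EB4 and 4616 to 5799 in *Taf4a*-/- EB4, and 13774 to 14154 against 3461 to 6001 at EB5. It was 1965 to 2557 against 1430 to 2029 at EB8, and *Apoa4*, *Apoc3* and *Hnf4a* were at 0.0 to 33.6 throughout. The sum of the 6 parietal endoderm markers was 15035 to 22903 against 9489 to 10861 at EB4. The sum of the 7 fibroblast markers was 1033 to 2650 in WT ES cells and 209 to 494 in *Taf4a*-/- ES cells, which were grown on feeders, and 890 to 1336 against 450 to 490 at EB4. The 7 choroid plexus markers, a tissue that makes *Ttr*, summed to 476 to 542 in WT EB8 and 1124 to 1926 in *Taf4a*-/- EB8. *Folr1* is on this list as well as among the uptake genes, and without it the sums were 426.3 and 398.1 against 334.5 and 488.9, which overlap. The part of these cell types in the values of the members was not tested.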

How the data were processed

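Polyadenylated RNA of 16 libraries, 2 for each of 4 stages in WT and *Taf4a*-/- cells, was sequenced by the authors. The submitters' processing notes name TopHat2 2.0.10, HTSeq 0.5.4p3, DESeq2 1.0.19 and mm9, and the counting mode for overlapping genes is not given in the sources used here. The deposited values are a signal on the authors' scale, gene read counts divided by a size factor per library ("normalised counts"). Whole reads were recovered for 100.0% of values within 0.01 of a read, giving 22442118 to 40711826 reads per library.

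Exon lengths came from the reference annotation for 27603 of 27807 genes. The 16124 genes averaging 10 normalised counts or more were fitted with limma 3.58.1 in R 4.3.3 on log2(normalised count + 1), with 8 group means over all 16 libraries, a trended prior and Benjamini-Hochberg adjustment at 0.05. Standard errors and adjusted p-values come from this fit, and p-values measure the spread between these libraries, which may be partly technical. The fit was tested on simulated data. The background for libraries that do not overlap was the 18226 genes with a mean of at least 4. Folds are ratios of means. With 0 reads in a group, 3 reads over its libraries gave a bound, and with 1 to 3 reads an exact 95% counting interval is given. Reads without molecular identifiers are not independent molecules.

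The members, gene lists and marker lists were chosen with earlier results of these data known. All members were to be named, with up to 4 called genes per list and comparison, taken by size of change. *Foxa1*, *Sox17*, *Apoe*, *Dhrs3*, *Zbtb20*, *Mttp* and *Tfrc* were named beyond that rule after their values were seen. Some genes counted in the lists are not reported here by name. Likeness was Pearson r over 16 libraries among genes with a mean of at least 50. Motifs were searched in RefSeq windows of 250 bases before and 50 after each start (GRCm38.p6), on both strands except the TATA box. Alternatives were other pseudocounts (0.1 and 5), scalings, filters and samples, a replicate block, an added fold threshold, and edgeR 4.0.16 and DESeq2 1.42.0 on the recovered reads. Same-numbered libraries were compared by the correlation of their deviations from group means. Tables were joined in Python 3.11.15.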

Additional observations from a re-analysis of the deposited data

Results flagged for a closer look

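For *Trf*, both *Taf4a*-/- libraries lay under both WT libraries in ES cells and above them in embryoid bodies, with log2 differences of -0.49 in ES cells, 0.99 at EB4, 1.47 at EB5 and 1.33 at EB8. For *Amn* both *Taf4a*-/- libraries lay under both WT libraries in ES cells (-1.07) and above them at EB5 (1.29), and the genotypes overlapped at EB4 and EB8. Neither difference between stages was tested, since the values of these genes in all groups were known when they were chosen.

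The change from EB4 to EB8 differed between genotypes by limma for these related genes, given as *Taf4a*-/- minus WT on the log2 scale. It was more positive in *Taf4a*-/- cells for *Steap3* (3.69) and *Nr5a2* (2.16), and more negative for *Vtn* (-6.82), *Crabp1* (-5.40) and *Onecut1* (-4.52). The calls of *Steap3*, *Nr5a2* and *Crabp1* held without any 1 of the 8 libraries. Those of *Vtn* and *Onecut1* each held in 1 of the 8 fits without a library, *Vtn* only without WT EB8 replicate 2 and *Onecut1* only without *Taf4a*-/- EB8 replicate 1, with adjusted p up to 0.065 and 0.118. Groups of 2 libraries allow no test for an outlying library.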

How the results depend on the processing

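Of 320 member differences under other settings, 292 moved by less than 1 SD between replicates and 28 by more. *Amn* at EB8 was -0.36 without *Taf4a*-/- replicate 1, *Amn* at EB4 (-0.04) reached 1.07 and *Serpina3m* in ES cells (-0.04) reached 0.97 with a library left out. In ES cells 6 members lay below WT, 3 after quantile normalisation and 6 to 10 with a library left out (10 without WT replicate 1), and 0 lay above, 0 to 1 with a library left out (1 without WT replicate 2). Of 1484 alternative values of called list genes, 1263 kept the call, 221 lost it and 0 changed direction, and 47 of the 94 calls held without any 1 library.

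For the secreted list the EB4 count of 0 was 1 with a replicate block and 0 to 1 with a library left out. The EB5 count of 0 was 2 with a pseudocount of 5, 1 with the replicate block and 3 by DESeq2. The EB8 count of 5 was 3 for genes with a mean of at least 50 and 2 to 4 with a library left out. The WT count of 5 from EB4 to EB8 was 9 with no filter, 3 for genes with a mean of at least 50, 3 in a fit of only the compared groups and 2 to 5 with a library left out. The *Taf4a*-/- count of 1 was 0 after quantile normalisation, 3 with no filter and 0 to 1 with a library left out. The count of 1 for the difference between genotypes was 0 with a pseudocount of 0.1, with a mean of at least 50, in a fit of only the compared groups, by edgeR and by DESeq2, and 0 to 1 with a library left out.

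For the regulators the ES count of 0 was 1 by DESeq2. The EB4 count of 1 was 0 in a fit of only the compared groups, 2 with the replicate block, 2 by DESeq2 and 0 to 1 with a library left out. The EB5 count of 2 was 5 by DESeq2 and 0 to 4 with a library left out. The *Taf4a*-/- count of 7 from EB4 to EB8 was 3 after quantile normalisation, 4 in a fit of only the compared groups and 3 to 6 with a library left out. The count of 2 for the difference between genotypes was 4 with a pseudocount of 5, 1 with no filter, 1 with a mean of at least 50, 0 in a fit of only the compared groups, 4 by DESeq2 and 1 to 2 with a library left out. The cause was not tested. A library alone in its group was assumed to vary like the other groups.

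The labels do not say that replicate numbers mark a shared line or day. Same-numbered deviations correlated at -0.058 between genotypes at EB4, -0.209 at EB5 and -0.133 at EB8, and at 0.335 in ES cells. Within WT they correlated at 0.523 to 0.605 among embryoid body stages and at -0.179 to -0.048 with ES cells, and within *Taf4a*-/- cells at 0.233 to 0.422. This is a hint from the data that numbers go with lines among WT embryoid bodies and within *Taf4a*-/- cells, not part of the design. It does not extend to WT ES cells. Replicate 1 of WT was at -0.13 on chromosome 8 in ES cells and at 0.39 to 0.43 in embryoid bodies. Replicate 2 of WT was at 0.47 on chromosome X in ES cells and at -0.24 to -0.14 in embryoid bodies. The part of lines in the WT changes from ES cells to embryoid bodies was not tested. With a replicate block within genotype, the secreted list's counts from EB4 to EB8 were 5 in WT, 1 in *Taf4a*-/- cells and 1 for their difference, and those of the regulators 11, 7 and 2. Members with 3 reads or fewer in many libraries, *Afp*, *Ttr* and *Apoa1*, are limited by depth.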
